A study of Mus musculus with 4 samples.

Results

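A set of 10 Notch pathway genes was followed in mouse DN4 thymocytes, with and without an induced deletion of the transcription factor Ikaros. They are the Notch targets Hes1, Ptcra, Il2ra, Dtx1, Nrarp and Trib2, the receptors Notch1 and Notch3, the glycosyltransferase gene Lfng and the DNA-binding partner Rbpj. The members were taken by gene symbol, and all 10 of 10 were found among 19938 genes that the platform annotation names alone on a probe set. They took up 11 of the 35556 probe sets, because Rbpj had 2. The probe set with the higher mean stood for Rbpj, and the other is given beside it. The choice used no measured value, but it was made with earlier results of these data known.

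The Cre+ group consisted of 2 Ikf/f Rosa26-CreERT2+ mice (mice 129 and 135), and the Cre- group of 2 Ikf/f mice (mice 131 and 137). Both groups carried floxed alleles of Ikzf1, the Ikaros gene, and only the Cre+ mice carried CreERT2, a Cre recombinase that tamoxifen activates and that is expressed from the Rosa26 locus, which is active in most cell types. The recombinase was therefore not limited to thymocytes. Tamoxifen was given to all 4 mice for 4 days at 50 mg/kg, and the cells were taken 24 h after the last injection. The treatment label of the Cre- mice repeats the Cre+ genotype, and the groups here follow the titles and the design text. The labels give neither age nor strain. The design text reports that Ikaros protein was lost from the sorted Cre+ cells on western blots.

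DN4 cells are the last thymocyte stage without CD4 and CD8, just after cells have passed the pre-T cell receptor checkpoint. Notch receptors are cut after they bind a ligand on a neighbouring cell, and the freed intracellular part joins RBPJ and Mastermind proteins on DNA and switches on target genes. In the thymus this signal commits progenitors to the T lineage and carries them to the pre-T cell receptor checkpoint, after which target gene expression declines. Ikaros is known from earlier work in mouse T cells to restrain Notch target genes, Hes1 among them. Its DNA-binding motif shares bases with that of RBPJ.

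Promoter sequences of 9 of the 10 genes were at hand in a RefSeq table (build GRCm38.p6); none was at hand for Hes1. The 250 bases before each start were searched on both strands for the RBPJ motif GTGGGAA and for the Ikaros core TGGGAA. Every match of the first also holds the second. The Ikaros core was found in 3 of the 9 genes, Ptcra, Lfng and Rbpj, and in 24.1% of all 27025 genes of the table. The RBPJ motif was found in 1 of the 9, Lfng, and in 6.18% of all genes. The windows of Ptcra (chr17:46763713-46763962, minus strand) and Lfng (chr5:140607091-140607340, plus strand) are shown because these 2 genes had the largest differences after Hes1 among the members with higher means. Capitals mark the matched motifs.
Ptcra: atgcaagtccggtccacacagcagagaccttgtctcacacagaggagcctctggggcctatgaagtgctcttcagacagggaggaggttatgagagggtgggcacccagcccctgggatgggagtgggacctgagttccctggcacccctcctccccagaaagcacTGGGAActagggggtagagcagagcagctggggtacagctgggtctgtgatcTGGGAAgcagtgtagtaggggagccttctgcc
Lfng: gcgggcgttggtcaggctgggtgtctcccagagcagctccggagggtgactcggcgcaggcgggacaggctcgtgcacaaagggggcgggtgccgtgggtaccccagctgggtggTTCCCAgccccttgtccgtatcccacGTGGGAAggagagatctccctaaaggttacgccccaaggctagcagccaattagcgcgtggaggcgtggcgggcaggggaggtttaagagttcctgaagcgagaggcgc
Counted from the start, Ptcra held the Ikaros core at -84 to -79 and at -32 to -27. Lfng held the RBPJ motif at -109 to -103 and a separate Ikaros core on the other strand at -135 to -130. A match is a description of letters and no evidence of binding, and enhancers outside these windows were not searched.

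Each mouse gave 1 array, and values are log2 expression after RMA, so a difference of 1 is a doubling. Array medians lay between 6.85 and 6.88, and pairwise correlations across probe sets between 0.994 and 0.997. By Xist and the Y-linked gene Kdm5d, each group held 1 female (mice 129 and 131) and 1 male (mice 135 and 137). The spread within a group therefore includes any difference between the sexes, and no fit included sex. The array level of Ikzf1 was 12.06 and 11.99 in Cre+ animals and 12.07 and 12.11 in Cre- animals (difference -0.07, SE 0.04, limma adjusted p = 0.925). The position of its probes relative to the floxed part was not analysed here, so this value does not check the deletion. The number of arrays, 2 per group, limits the precision of every value below.

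Among the 10 genes, 6 had a higher and 4 a lower mean in Cre+ cells, and the differences ran from -0.60 for Trib2 to 0.91 for Hes1. The median was 0.08, or 0.012 without Hes1, beside a median of -0.0087 over all 19938 genes, of which 45.9% had higher means. With limma adjusted over all probe sets, 0 of the 10 genes passed an adjusted p of 0.05, and 0% of the 35556 probe sets did, while 2356 had an unadjusted p under 0.05. When the fit was limited to the 21789 probe sets with 1 gene symbol, 1 of the 10, Hes1, passed, beside 1.22% of those probe sets. An unadjusted p under 0.05 was reached by 5 of the 10 (Hes1, Ptcra, Lfng and Rbpj higher, Trib2 lower), beside 6.86% of all genes. The groups did not overlap for 5 genes with higher and 3 with lower values, beside 16.1% and 20.3% of all genes. Only Notch3 and Il2ra overlapped. For the 8 genes without overlap, the female and the male pair necessarily differ in the same direction; of the other 2 genes, Il2ra had the same direction in both sexes and Notch3 did not.

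**Figure D1:**
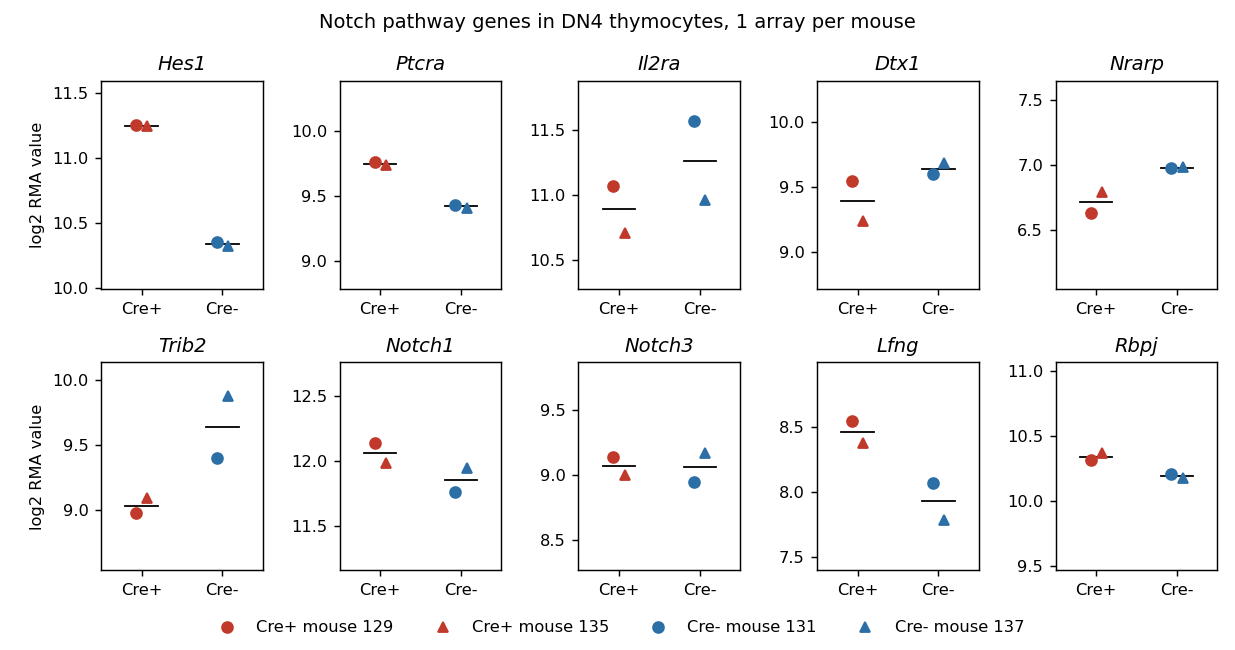
Log2 RMA value (vertical axis, each panel spanning the same range of log2 units) of the 10 genes in 2 Cre+ mice (red, left) and 2 Cre- mice (blue, right); points are mice and lines are group means. The Hes1 and Ptcra values of each group lie on top of each other, while Il2ra spreads over 0.61 within the Cre- group.

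The target genes were compared first. Hes1 encodes a basic helix-loop-helix repressor that Notch switches on directly. It was at 11.25 and 11.24 in Cre+ animals, against 10.35 and 10.32 in Cre- animals. Both Cre+ mice were higher than both Cre- mice, by at least 0.89, while the mice differed by 0.0055 within the Cre+ group and by 0.033 within the Cre- group. Its difference of 0.91 (SE 0.05, 95% interval 0.79 to 1.04) corresponded to 1.88-fold. By p-value it ranked 4 among the 19938 genes, and by size it ranked 78 among the higher ones. Limma gave an adjusted p of 0.0570 over all probe sets and of 0.000467 over those with 1 gene symbol. With 1 of the 4 arrays left out at a time, the difference lay between 0.90 and 0.93, each value with 1 array left in 1 group. In bulk samples such as these, more cells with Hes1 transcripts and more transcripts per cell cannot be told apart.

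Ptcra encodes the pre-T cell receptor alpha chain, the invariant partner of the newly rearranged beta chain. Its level was 9.76 and 9.74 in Cre+ animals, against 9.43 and 9.40 in Cre- animals. The groups did not overlap and each was tight, with SDs of 0.018 (Cre+) and 0.019 (Cre-) (n = 2 each). The difference was 0.33 (SE 0.07, 95% interval 0.16 to 0.50), or 1.26-fold. Neither limma fit called it, with adjusted p = 0.390 over all probe sets and 0.0891 over those with 1 gene symbol. The female and the male pair gave the same value, 0.33.

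Trib2, Nrarp, Dtx1 and Il2ra had lower means in Cre+ cells, and none passed either limma fit. Trib2, which encodes a pseudokinase with a known role in leukaemia, was at 8.97 and 9.09 in Cre+ animals and at 9.39 and 9.88 in Cre- animals. The Cre+ mice lay below both Cre- mice, which themselves differed by 0.48. Its difference of -0.60 (SE 0.17, 95% interval -1.04 to -0.16) made it 1.52-fold lower, and it ranked 40 from the lowest of the 19938 differences. Limma gave an adjusted p of 0.560 over all probe sets and of 0.120 over those with 1 gene symbol. The difference was -0.84 without mouse 131 and -0.36 without mouse 137, each with 1 Cre- array left.

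Nrarp encodes a small ankyrin repeat protein that Notch induces and that limits the Notch signal in return. It was at 6.63 and 6.79 in Cre+ animals and at 6.98 and 6.98 in Cre- animals. Both Cre+ mice were lower, and the difference was -0.27 (SE 0.11, 95% interval -0.54 to 0.0062, adjusted p = 0.764 from limma). Nrarp was the 1 member of 10 whose mean lay below the median of all probe sets. Dtx1, which encodes the ubiquitin ligase Deltex 1, a modulator of Notch, was at 9.54 and 9.23 in Cre+ animals and at 9.60 and 9.68 in Cre- animals. Mouse 135 was the low one, and mouse 129 lay just under the nearer Cre- mouse. The difference of -0.25 (SE 0.12, adjusted p = 0.850 from limma) was -0.40 without mouse 129 and -0.10 without mouse 135.

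Il2ra encodes CD25, the interleukin 2 receptor alpha chain, whose surface protein marks the DN3 stage and is lost in DN4. Its transcript was at 11.07 and 10.71 in Cre+ animals and at 11.58 and 10.96 in Cre- animals. The groups overlapped, and the 2 Cre- mice differed by 0.61, more than the group means did. In each sex the Cre+ mouse was lower, with a difference of -0.51 between the females and -0.25 between the males. The difference of -0.38 (SE 0.23, 95% interval -0.97 to 0.21, adjusted p = 0.931 from limma) was -0.07 without mouse 131 and -0.68 without mouse 137. Each of these 2 values rests on 1 Cre- array.

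**Figure D2:**
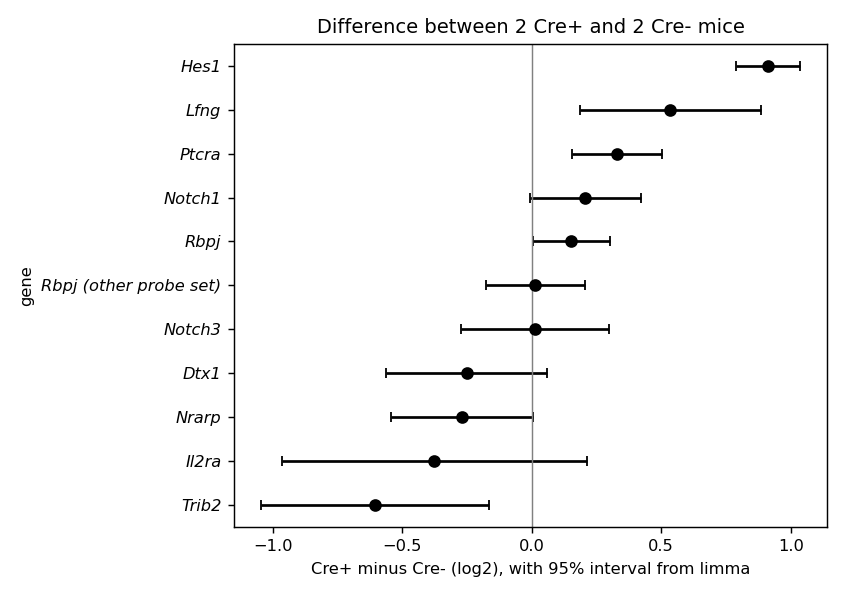
Cre+ minus Cre- difference on the log2 scale (horizontal axis) for the 11 probe sets of the 10 genes, ordered by size; points are differences of group means (2 mice each) and bars are 95% intervals from limma's moderated fit. Hes1 has the highest value, 0.91, with an interval from 0.79 to 1.04, and Trib2 the lowest, -0.60.

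Receptors and the machinery that acts on them came next. Notch1, the receptor that carries the signal in early thymocytes, was at 12.14 and 11.98 in Cre+ animals and at 11.76 and 11.95 in Cre- animals. The groups were apart by only 0.03, since mouse 135 and mouse 137 had nearly the same level. The difference was 0.21 (SE 0.08, 95% interval -0.0087 to 0.42, adjusted p = 0.765 from limma), with 0.38 between the females and 0.03 between the males. It was 0.13 without mouse 129 and 0.11 without mouse 131. Notch3, a receptor that is itself a Notch target, was at 9.14 and 9.01 in Cre+ animals and at 8.95 and 9.17 in Cre- animals. Its groups overlapped, with a difference of 0.012 (SE 0.11, 95% interval -0.27 to 0.30, adjusted p = 1 from limma).

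Lfng encodes Lunatic fringe, which extends sugars on Notch receptors and so shifts which ligands they answer to. It was at 8.55 and 8.38 in Cre+ animals, against 8.07 and 7.79 in Cre- animals. Both Cre+ mice were higher, by at least 0.31. The difference was 0.53 (SE 0.14, 95% interval 0.19 to 0.88), or 1.45-fold, the second highest of the members. It passed neither limma fit (adjusted p = 0.505 over all probe sets and 0.101 over those with 1 gene symbol). The difference was 0.68 without mouse 131 and 0.39 without mouse 137, each with 1 Cre- array left.

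Rbpj encodes the DNA-binding protein through which the cut receptor acts. The probe set with the higher mean was at 10.32 and 10.36 in Cre+ animals, against 10.20 and 10.17 in Cre- animals, which put both Cre+ mice higher. The difference was 0.15 (SE 0.06, 95% interval 0.0031 to 0.30, adjusted p = 0.742 from limma). The other probe set was at 5.10 and 5.11 in Cre+ animals and at 5.11 and 5.06 in Cre- animals. Its groups overlapped (difference 0.014, SE 0.07), and whether the 2 probe sets of Rbpj differ in this was not tested.

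Hes1 was then set against each of the other 9 genes. On every array the log2 value of each gene was subtracted from that of Hes1, and the group means of these values were compared, so a positive number means that the Cre+ minus Cre- difference of Hes1 was the higher one. The offset between probe sets cancels in this comparison. In all 9 cases both Cre+ arrays lay above both Cre- arrays. This necessarily follows for all 9 from the values above. The smallest gap of a Cre+ over a Cre- mouse was 0.89 for Hes1. In no other member did a Cre+ mouse exceed a Cre- mouse by more than 0.76, the largest gap for Lfng. The separation therefore adds no evidence to the single-gene values. All 9 comparisons use the same Hes1 values, so they are not independent of each other. The exact two-sided permutation p was 0.333 in each case, and 0.333 after adjustment over the 9; this is the smallest p that 2 against 2 arrays allow.

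Against the targets with lower means the gap was widest. Hes1 exceeded Trib2 in difference by 1.52 (SE 0.26), Il2ra by 1.29 (SE 0.34), Nrarp by 1.18 (SE 0.09) and Dtx1 by 1.16 (SE 0.16), with SEs from the spread within groups (n = 2 each). For Ptcra, which also had a higher mean, the gap was 0.58 (SE 0.01), so Hes1 and Ptcra were both higher but by unequal amounts on each array. Unlike those from limma, these SEs borrow nothing from other genes, so a small one is a weak guide to precision. The SE for Ptcra was 0.02 after quantile normalization. Against Notch3 it was 0.90 (SE 0.14), against Rbpj 0.76 (SE 0.03) and against Notch1 0.71 (SE 0.13). The narrowest gap was that to Lfng, 0.38 (SE 0.15), where the nearest arrays of the 2 groups were 0.17 apart. Leaving out 1 array at a time moved this gap between 0.25 and 0.50.

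**Figure D3:**
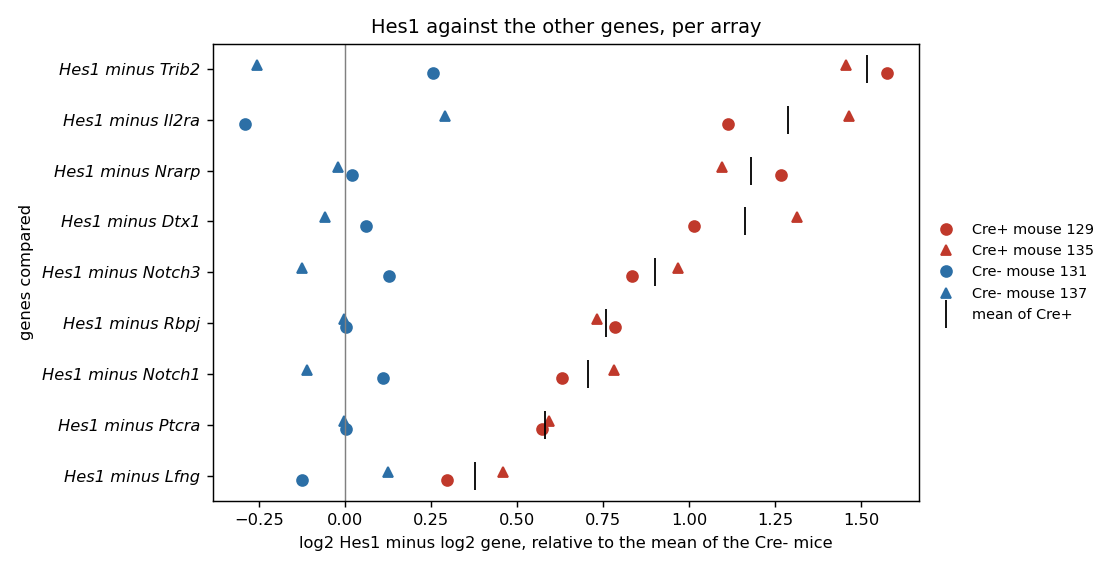
Log2 value of Hes1 minus that of each other gene on the same array (horizontal axis), after the mean of the Cre- pair was subtracted; symbols are mice (Cre+ red, Cre- blue) and ticks are Cre+ means. The Cre+ mice lie to the right of the Cre- mice in all 9 rows, from a mean of 0.38 for Lfng to 1.52 for Trib2.

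The genes whose 4 values ran most like those of Hes1 were sought by Euclidean distance between log2 values centred on each gene's mean, over 4 arrays and 19938 genes. The 5 nearest were Ldlrad3 (distance 0.017), Cyp4f16 (0.040), Wdfy4 (0.069), Itga6, the integrin alpha 6 gene (0.083), and Layn (0.083). Their differences lay between 0.89 and 0.99. None belongs to the lists of Notch genes used here. The nearest of the members, Lfng, ranked 171 (distance 0.43), and Ptcra ranked 406 (distance 0.58). For Ptcra the 5 nearest genes were Smtn, Qpct, Tnfsf14, Aldh7a1 and Tbrg1 (distances 0.014 to 0.039), and the nearest member was Rbpj, at rank 694 (distance 0.18). By this measure, near genes are those with a group difference of similar size, and it says nothing more over 4 arrays.

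The wider pathway was covered by 9 lists with 75 genes, of which 70 were measured, the 10 members included. Of these 70, 36 had higher and 34 lower means in Cre+ cells, with a median of 0.0040. Limma called 0 of them over all probe sets and 1, Hes1, over probe sets with 1 gene symbol, which is 1.43% of the 70 beside 1.22% of all those probe sets. An unadjusted p under 0.05 was reached by 9 (12.9%, beside 6.86% of all genes), of which 5 are members; among the 60 other genes it was reached by 4 (6.67%). Of the 60 genes that are not members, 30 had higher and 30 lower means, between -0.44 and 0.39, and 55 lay within 0.25 of 0. The 5 ligand genes (Dll1, Dll3, Dll4, Jag1 and Jag2), which in the thymus are supplied mainly by stromal cells, differed by -0.07 to 0.02, with -0.07 for Dll1 and -0.06 for Dll4. Of these 5, 0 had means above the median of all probe sets. The 4 receptors had a median of -0.02, with -0.13 (SE 0.13) for Notch2.

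Among 5 genes that glycosylate Notch, 4 had higher means (median 0.0060), while Mfng, the Manic fringe gene, had the opposite sign to Lfng (-0.19, SE 0.07). Mfng was at 10.16 and 10.10 in Cre+ animals and at 10.26 and 10.38 in Cre- animals, so its groups did not overlap either. The 7 measured genes of the proteases that cut Notch stayed between -0.12 for Adam17 and 0.07 (median 0.015), with -0.03 for the gamma-secretase subunit gene Psenen. Of 9 genes of the RBPJ activation complex, 6 had higher means (median 0.035), led by 0.22 (SE 0.11) for the Mastermind gene Maml1. Of 11 measured corepressors of RBPJ and HES proteins, 6 had higher means (median 0.02). The Groucho-family corepressor gene Tle4 differed by -0.25 (SE 0.09) and Ctbp1 by 0.05 (SE 0.03).

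The 12 signal modulators, with Trib2, Nrarp and Dtx1 among them, were split 6 to 6 (median 0.010), and the highest was Dtx3l, a Deltex-family ubiquitin ligase gene (0.31, SE 0.08). Dtx3l was at 11.10 and 10.89 in Cre+ animals and at 10.65 and 10.71 in Cre- animals, without overlap, and did not pass limma (adjusted p = 0.128 over probe sets with 1 gene symbol). It is also an interferon-induced gene. Of the 10 HES and HEY repressor genes, 4 had higher and 6 lower means (median -0.03). Apart from Hes1 they lay between -0.09 for Hes5 and 0.26 (SE 0.11) for Heyl. Only 5 of the 10, Hes1 included, had means above the median of all probe sets. The 16 measured thymocyte Notch targets were split 8 to 8 (median 0.0036). In this list Il7r differed by -0.44 (SE 0.18) and Igf1r by 0.39 (SE 0.14), while Myc, which drives growth of dividing thymocytes, differed by -0.0017 (SE 0.05). Il7r, Igf1r, Myc and Hes5 were named after their values were seen.

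**Figure D4:**
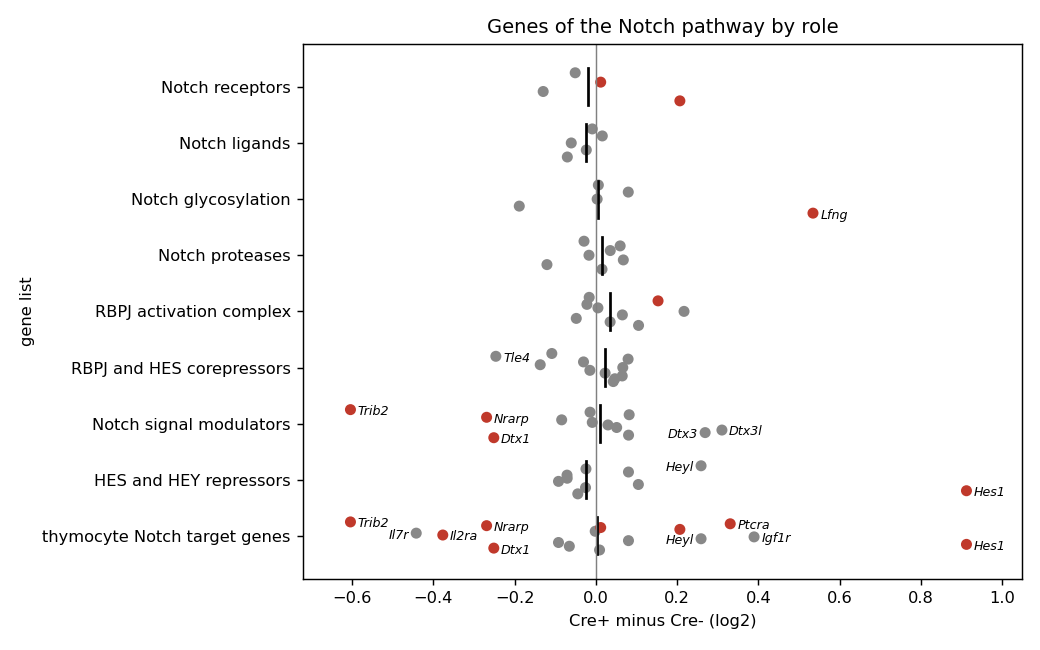
Cre+ minus Cre- difference on the log2 scale (horizontal axis) for each measured gene of 9 Notch pathway lists (rows); red points are the 10 genes described above, grey points other genes, and black ticks list medians, with genes beyond 0.24 in either direction named. Hes1, at 0.91, lies apart from the other HES and HEY genes, which run from -0.09 to 0.26. Only 5 of the 10 HES and HEY genes, Hes1 included, had means above the median of all probe sets.

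Marker lists for the sorted cells and for cells the sort could hold were summed on the linear scale. For all marker lists, passing means a limma adjusted p under 0.05 in the fit over probe sets with 1 gene symbol. That level was reached by 1.22% of those probe sets. In the fit over all probe sets, no marker gene passed. T lineage markers were high on all arrays, with Thy1 between 13.12 and 13.23. Their sum was 38340 and 35541 in Cre+ animals and 32340 and 31966 in Cre- animals (5 of 6 measured genes with higher means; Cd3d, Cd3e and Cd3g passed in the fit over probe sets with 1 gene symbol). The coreceptor genes that DN4 cells are sorted to lack on their surface were not dark. Cd4 was at 7.88 and 7.93 in Cre+ animals and at 7.26 and 7.47 in Cre- animals, and Cd8b1 was at 11.50 and 11.59 in Cre+ animals and at 11.72 and 11.91 in Cre- animals. DN2 and DN3 genes outside the Notch lists summed to 13192 and 12678 in Cre+ animals and to 11296 and 10514 in Cre- animals (4 of 9 higher, 5 lower, median difference -0.03, with Rag1 and Dntt higher and passing). Most of that sum came from Dntt, and without it the sums were 4845 and 4535 in Cre+ animals and 3974 and 3564 in Cre- animals. The highest gene after Dntt was Rag1, at 11.87 and 11.69 in Cre+ animals and at 11.45 and 11.35 in Cre- animals. Sums without both genes were not made, so the remaining gap does not describe the list as a whole. Among the 5 lower genes, Cd44 had no overlap (-0.42, SE 0.10) and did not pass. DP genes summed to 8302 and 8144 in Cre+ animals and to 9043 and 10424 in Cre- animals (2 of 7 higher, Cd4 among them, and 5 lower, of which Ccr9 passed). Cd3e, Cd3g, Rag1, Cd44 and Cd4 here were named after their values were seen. The part of these stage markers in the values of Hes1, Ptcra and the other targets was not tested.

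Of markers of other cells, gamma-delta T genes summed to 835 and 808 in Cre+ animals and to 955 and 916 in Cre- animals (1 of 5 higher, Blk lower and passing). B cell genes summed to 1917 and 1735 in Cre+ animals and to 1531 and 1486 in Cre- animals (3 of 8 higher, Igll1 passing). Most of that sum came from Cd79b, at 10.34 and 10.15 in Cre+ animals and at 10.04 and 9.96 in Cre- animals. The highest gene after it was Igll1, at 8.11 and 7.94 in Cre+ animals and at 6.68 and 6.62 in Cre- animals. Of the 8 genes, 5 had lower means in Cre+ cells, and Cd79a reached at most 5.29 on any array. Macrophage and dendritic genes summed to 925 and 1176 in Cre+ animals and to 829 and 1053 in Cre- animals (6 of 8 higher, Lyz2 passing), with the class II gene H2-Ab1 between 8.31 and 9.07 and Adgre1 at most at 4.87. NK cell genes summed to 612 and 623 in Cre+ animals and to 1187 and 1065 in Cre- animals (3 of 6 higher, Nkg7 lower and passing). Nkg7 carried that gap: without it the NK sums were 139 and 141 in Cre+ animals and 142 and 139 in Cre- animals, and Ncr1 reached at most 4.77. Thymic epithelium genes summed to 771 and 805 in Cre+ animals and to 896 and 853 in Cre- animals (2 of 7 higher, none passing). Epcam (difference -0.48, SE 0.15) carried that gap. Without it the sums were 565 and 534 in Cre+ animals and 563 and 527 in Cre- animals. The 3 measured erythroid genes summed to 255 and 246 in Cre+ animals and to 264 and 229 in Cre- animals (3 of 3 higher, none passing). RMA values have no 0, so no marker was listed at 0, and the part of other cells in the values of the 10 genes was not tested.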

How the data were processed

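Total RNA from sorted DN4 cells was labelled with biotin in 2 cycles and hybridised to Affymetrix mouse gene arrays, 1 per mouse, per the labels' protocols. The submitters' processing notes name RMA, and the deposited values have the range of log2 expression. RMA settings are not given in the sources used. No further normalization was applied.

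Genes were named where the platform annotation gives a probe set exactly 1 symbol, with the highest-mean probe set per gene. All 35556 probe sets were fitted with limma 3.58.1 in R 4.3.3 (lmFit, eBayes with an intensity trend; 2 residual and 2.99 prior degrees of freedom), with Benjamini-Hochberg adjustment, and the fit was tested on simulated data. Differences are Cre+ minus Cre-. Mouse numbers pair no animals. The members, the 9 pathway lists and the 9 marker lists were chosen with earlier results of these data known, and no list was tested as a set. Genes named from the pathway lists are those with an unadjusted p under 0.01 and the 2 with the smallest p, beside all members. From marker lists the rule was the gene with the highest mean and the one with the smallest p. Cd79a, Adgre1 and Ncr1 met neither criterion and were named outside this rule. Alternatives were left-out arrays, 3 normalizations, 3 choices of probe sets, 2 variance models and array weights.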

Additional observations from a re-analysis of the deposited data

How the results depend on the processing

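With 2 arrays per group, no exact two-sided permutation test over samples could give a p under 0.333. Hes1 kept its direction in all alternatives run, between 0.90 and 0.93. Its limma adjusted p, 0.0570 over all probe sets, fell under 0.05 after centring of the arrays on their medians (difference 0.92, adjusted p = 0.0434), among probe sets above the 25th percentile (0.91, adjusted p = 0.0276), among those above the median level (0.91, adjusted p = 0.0102) and among those with 1 gene symbol (0.91, adjusted p = 0.000467). The last 3 settings test fewer probe sets, and each also estimates limma's variance prior anew from them. The SE of Hes1 was 0.0533 over probe sets with 1 gene symbol and 0.0486 over all of them. The adjusted p of Hes1 can move through either change, and the part of each was not tested. It was 0.0589 after quantile normalization again, 0.0770 after cyclic loess, 0.139 without a trend, 0.0544 with robust eBayes, 0.0539 with array weights and between 0.111 and 0.599 with 1 array left out of the fit over all probe sets.

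The count of probe sets called, 0 in the fit over all of them, was 10, 25, 80 and 266 under these 4 settings in the same order, and 1 member and 1 pathway gene, Hes1, was called in each. With probe sets limited to 1 gene symbol and 1 array left out, a setting chosen after seeing the data in which the lone array is assumed to vary like the other group, 138 (without mouse 129), 480 (131), 276 (135) and 385 (137) probe sets, 1 to 3 members and 1 to 4 pathway genes were called, and Hes1 differed by 0.90 to 0.93. In the 4 fits over all probe sets with 1 array left out, 0 were called. The count of members with higher means was 5 or 6 and that of pathway genes 30 to 39. Notch3 turned to -0.058 without mouse 129 and to -0.099 without mouse 131, in a range up to 0.12 without mouse 137, and no other member changed sign in the alternatives run. Hes1 exceeded all 9 other members with the groups apart in each of the 7 alternatives run for this comparison. Leaving out an array or centring on medians cannot undo this separation, so only quantile normalization and cyclic loess could have changed it. The gap of Hes1 to Ptcra was 0.59 after quantile normalization. The causes of these changes were not tested. RMA values carry no signal over background, so dim probe sets were judged by their level alone.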
